A study of Mus musculus with 37 samples.

Results

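The levels of 5 imprinted genes from 3 loci were followed in mouse primordial germ cells with and without the maintenance methyltransferase gene Dnmt1. The genes are Commd1 with its neighbour Zrsr1, Igf2r with its neighbour Airn, and Grb10. They were taken by symbol from the deposited tables, and all 5 were found among the 24318 genes of each table, at both stages. All 5 also passed the filter of a mean of at least 1 RPKM, which 11584 genes passed at E10.5 and 12667 at E11.5. RPKM scales the reads of a gene to its length and to the mapped reads of the library.

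Primordial germ cells, the precursors of eggs and sperm, were sorted by a green fluorescent reporter (Oct4-IRES-Gfp), and their RNA was amplified before sequencing. Mothers homozygous for the floxed Dnmt1 allele (2lox) and the reporter were crossed with Blimp1-Cre males, whose Cre acts in germ cells from early in their formation. The labels do not state the Dnmt1 alleles of the males. By that cross each embryo of either genotype inherited a floxed Dnmt1 allele from its mother, also those that the labels call wild type. The knockout libraries, called DCKO (labelled Dnmt1 -/-), and the controls were 3 and 4 libraries at E10.5, and 10 and 8 at E11.5. At E10.5 the DCKO libraries were 1 male and 2 female, and the controls 2 male and 2 female. At E11.5 they were 4 male and 6 female DCKO and 4 male and 4 female controls. The labels do not say that libraries came from separate embryos, so p-values measure the spread between these libraries, which may be technical in part. The 12 samples of E13.5 were not analysed here.

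Imprinted genes are transcribed mainly from 1 parental allele, and the choice rests on DNA methylation laid down in only 1 of the parents' gametes. At the Igf2r locus the paternal allele makes Airn, a long noncoding antisense RNA whose transcription silences Igf2r on the same chromosome, while methylation keeps Airn silent on the maternal allele. Zrsr1 is a retrogene, a copy of the X-linked splicing gene Zrsr2 that lies in an intron of Commd1; it is transcribed from the paternal, unmethylated allele, and Commd1 is more active on the maternal allele in some tissues. Grb10 encodes an adaptor that dampens insulin and IGF receptor signalling and is transcribed from the maternal allele in most tissues and from the paternal allele in neurons. Primordial germ cells lose these parental marks as they reach the gonads. The RPKM tables do not separate the parental alleles, so each value is a sum over both.

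The start regions of 4 of the genes are shown for their CG pairs, the bases that Dnmt1 methylates. Whether these regions hold the parental marks of the loci was not tested. The sequences are RefSeq's, on build GRCm38.p6 of the mouse genome, from 250 bases before to 50 bases after the annotated start, written 5′ to 3′ on the strand of the gene. Capitals mark every CG.
Zrsr1 (chr11:22971755-22972054, plus strand): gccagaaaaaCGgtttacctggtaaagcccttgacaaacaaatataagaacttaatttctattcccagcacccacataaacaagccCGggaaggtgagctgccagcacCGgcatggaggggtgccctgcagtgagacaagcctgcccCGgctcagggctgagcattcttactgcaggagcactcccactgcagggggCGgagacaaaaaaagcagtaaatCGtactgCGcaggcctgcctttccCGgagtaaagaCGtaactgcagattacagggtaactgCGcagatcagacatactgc
Airn (chr17:12741061-12741360, plus strand): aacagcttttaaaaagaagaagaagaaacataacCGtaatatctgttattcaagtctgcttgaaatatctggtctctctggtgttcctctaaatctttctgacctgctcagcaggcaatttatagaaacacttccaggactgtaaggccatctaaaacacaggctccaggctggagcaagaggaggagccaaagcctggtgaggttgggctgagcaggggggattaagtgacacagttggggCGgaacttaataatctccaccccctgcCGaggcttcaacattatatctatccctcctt
Igf2r (chr17:12769657-12769956, minus strand): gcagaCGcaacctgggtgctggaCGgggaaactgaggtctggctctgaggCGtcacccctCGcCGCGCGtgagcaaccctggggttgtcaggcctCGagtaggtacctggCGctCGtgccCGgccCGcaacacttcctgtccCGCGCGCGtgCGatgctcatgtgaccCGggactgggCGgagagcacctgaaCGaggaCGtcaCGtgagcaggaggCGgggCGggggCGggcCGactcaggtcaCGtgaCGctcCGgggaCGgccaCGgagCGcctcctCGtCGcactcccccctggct
Grb10, first start (chr11:12037371-12037670, minus strand): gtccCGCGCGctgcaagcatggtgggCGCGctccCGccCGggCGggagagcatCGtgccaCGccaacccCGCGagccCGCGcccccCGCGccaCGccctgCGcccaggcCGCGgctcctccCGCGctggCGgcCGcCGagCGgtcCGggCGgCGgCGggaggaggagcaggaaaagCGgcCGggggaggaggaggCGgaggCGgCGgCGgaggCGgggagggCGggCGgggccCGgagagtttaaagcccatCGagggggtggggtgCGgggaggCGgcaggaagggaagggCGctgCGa

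The first Grb10 start held 45 CG in 300 bases, more than 98.1% of the 32851 start regions in the table, and Igf2r held 34, more than 92.3%. Airn held 3 CG and Zrsr1 10, against a median of 7 over all start regions. The regions not printed held 18 CG (Commd1, first start), 17 (Commd1, second start) and 9 (Grb10, second start). The hexamer TGCCGC, which the imprint-keeping protein ZFP57 binds when methylated, was searched on both strands. It occurred once in the first Commd1 region and once in the first Grb10 region, and 11.6% of all start regions held it.

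In the GENCODE annotation of GRCm38, Zrsr1 (chromosome 11, plus strand) lay wholly inside Commd1, which runs on the minus strand. Its RefSeq start was 10279 bases from the first and 861 bases from the second Commd1 start. Of 4492 Zrsr1 exon bases, 412 overlapped an exon of Commd1. Airn (chromosome 17, plus strand) started in an intron of Igf2r, 28395 bases from the Igf2r start, ran on beyond it and shared 0 exon bases with it. The files are on build mm9 and the sources used here do not say that counting used strand. Reads of Zrsr1 and Commd1 in the shared bases therefore cannot be told apart, and Zrsr1 can share reads with its parent Zrsr2.

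Dnmt1 separated the genotypes at both stages, with no overlap. Its level was 74.1 to 107 RPKM in the E10.5 controls and 14.9 to 29.6 in the DCKO libraries (exact two-sided permutation p = 0.0286, the smallest that 35 splits allow). At E11.5 it was 72.9 to 296 RPKM in controls, and its highest DCKO value was 59.4 (permutation p = 4.6e-05 over 43758 splits). Across the 12 germ cell markers the mean log2(RPKM + 1) was 5.61 to 6.12 at E10.5 and 4.89 to 6.21 at E11.5, except 2.88 in E11.5 male control 3. Across 6 mesenchyme markers (Col1a1, Col1a2, Col3a1, Pdgfra, Pdgfrb and Twist1) this mean was 6.05 in that library, 4.82 in female DCKO 4 and 4.70 in male DCKO 1, and 0.20 to 3.53 in the other 15 E11.5 libraries. At E10.5 it was 2.37 in male control 2 and 0.10 to 0.53 in the other 6. Male control 4 at E11.5 had the fewest genes at 1 RPKM or more, 8277, against 8607 to 13200 in the others. The depth of the libraries is unknown, because RPKM values here show no steps of whole reads.

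**Figure D1:**
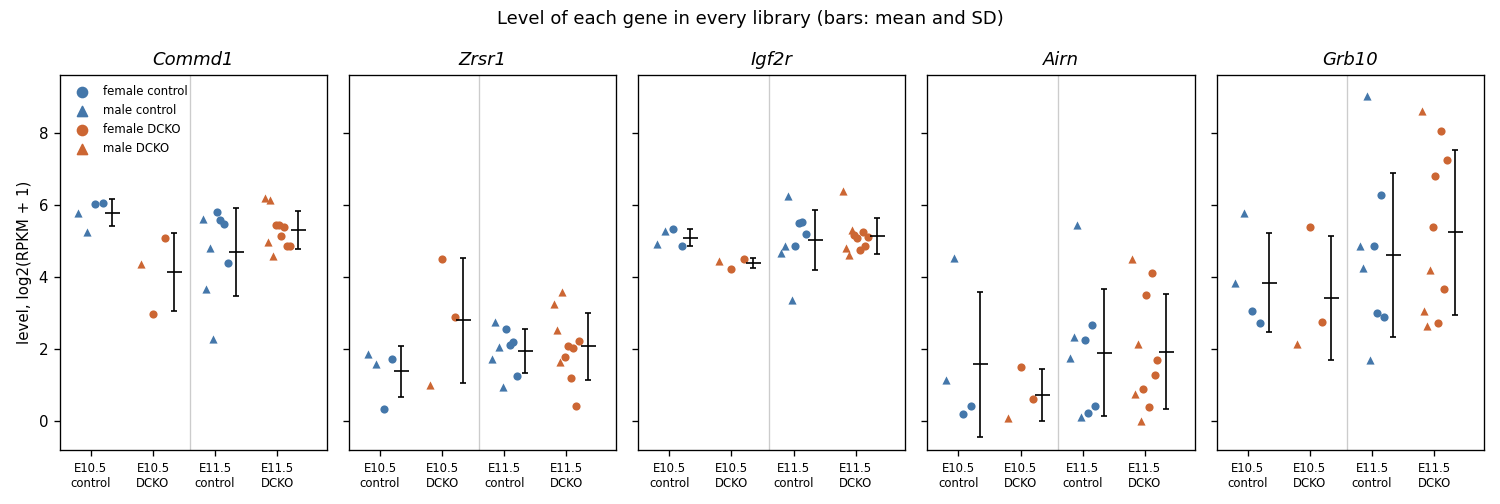
Level of each gene in every library, as log2(RPKM + 1), by stage and genotype; circles are female and triangles male libraries, and bars give the mean and SD of the group. At E10.5 all 3 DCKO libraries lie below all 4 controls for Commd1 and Igf2r, and Airn and Grb10 spread widely at E11.5.

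Commd1, a copper-handling and endosomal sorting protein, was lower in the E10.5 DCKO libraries. The controls had 54.1 and 37.0 RPKM (males) and 63.3 and 65.9 (females). Male DCKO 1 had 19.4 RPKM and the female DCKO libraries 6.87 and 33.2. Every DCKO library was thus below every control, with a mean level of 4.14 ± 1.07 on the log2(RPKM + 1) scale (SD, n = 3) against 5.78 ± 0.37 (SD, n = 4). The fitted difference was -1.67 on the log2(RPKM + 1) scale (SE 0.55, 95% interval -2.93 to -0.41). It did not pass the threshold over all genes (limma, adjusted p = 0.991; unadjusted p = 0.0154), where 0% of 11584 genes passed and 3.09% had an unadjusted p under 0.05. The exact permutation p, unadjusted and without regard to sex, was 0.0286, the smallest possible. It rests on the same lack of overlap.

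At E11.5 the Commd1 groups overlapped. Male controls ranged from 3.84 to 48.0 RPKM (48.0, 11.6, 26.8 and 3.84 in replicates 1 to 4) and male DCKO libraries from 22.9 to 71.9 (71.9, 30.6, 69.4 and 22.9). Female controls had 54.9, 46.5, 43.4 and 20.1 RPKM, and the 6 female DCKO libraries 27.8 to 42.7 with a median of 37.3. The highest 2 values of the stage were both male DCKO, and the lowest 2 both male control. The difference over both sexes was 0.63 (SE 0.38, 95% interval -0.18 to 1.43; limma adjusted p = 0.912), the opposite sign to E10.5. Without male control 4 it was 0.33 (limma adjusted p = 0.926), the lowest of a range up to 0.88 when each library was left out in turn. The stages were not tested against each other, since their tables may have been normalized separately.

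By sex, Commd1 differed by 1.38 in males (SE 0.57, 95% interval 0.20 to 2.57) and by -0.13 in females (SE 0.52, 95% interval -1.21 to 0.95). The male difference had an unadjusted p of 0.0247 and a limma adjusted p of 0.672; 6.95% of genes had an unadjusted p under 0.05 in males, 2.17% in females. Leaving out each library in turn gave male differences of 0.78 to 1.89. The lowest was without male control 4, the library with the fewest genes detected (unadjusted p = 0.128, limma adjusted p = 0.791). The highest was without male control 1 (unadjusted p = 0.0027, limma adjusted p = 0.441). The difference between the sexes was -1.51 (unadjusted p = 0.0633, limma adjusted p = 0.995). In this test 3.58% of genes had an unadjusted p under 0.05 and 0% passed. Leaving out each library in turn gave sex differences of -2.02 to -0.91, the last without male control 4.

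Zrsr1, whose protein is a homologue of the small U2AF subunit that helps recognise the 3′ splice site, was the low partner of the pair. At E10.5 the controls had 2.62 and 2.02 RPKM (males) and 0.254 and 2.34 (females), and the DCKO libraries 1.02 (male) and 21.5 and 6.44 (females). Both female DCKO libraries were above every control, and the male DCKO library was among them. The fitted difference was 1.31 (SE 0.91, 95% interval -0.75 to 3.37; limma adjusted p = 0.991). By exact permutation p was 0.200. Without male DCKO 1 it was 2.66 (limma adjusted p = 0.908), and without female DCKO 1 it was 0.57 (limma adjusted p = 0.999).

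At E11.5 Zrsr1 stood at 2.35, 5.75, 3.14 and 0.930 RPKM in male controls and 8.60, 4.78, 2.11 and 11.0 in male DCKO libraries. Female controls had 4.86, 3.35, 3.64 and 1.38 RPKM, and the 6 female DCKO libraries 0.352 to 3.70 with a median of 2.74. The 2 highest libraries were male DCKO and the lowest was female DCKO. The difference was 0.23 over both sexes (SE 0.39, 95% interval -0.58 to 1.05), 0.88 in males and -0.41 in females. None passed the threshold (limma adjusted p = 0.979, 0.780 and 1.00), nor did the difference between the sexes, -1.29 (limma adjusted p = 0.995).

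The Zrsr1 value was 0.402% to 5.46% of the Commd1 value in the E10.5 controls and 5.25%, 19.4% and 313% in the DCKO libraries. Only in E10.5 female DCKO 1 was Zrsr1 the higher of the pair, with the lowest Commd1 and the highest Zrsr1 of the stage. At E11.5 the share ran from 1.26% to 47.9% in DCKO and from 4.89% to 49.4% in controls. Across libraries the pair was not related beyond the spread. Pearson's r was -0.72 at E10.5 (exact permutation p = 0.0700, adjusted 0.155; rho -0.43, adjusted 0.515; n = 7; r -0.66 without the 2 libraries farthest in Commd1). At E11.5 r was 0.26 (permutation p = 0.301, adjusted 0.401; rho 0.14, adjusted 0.635; n = 18; r 0.19 without 2). Adjustment was over the 16 relations computed.

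Igf2r, the receptor that carries mannose 6-phosphate enzymes to lysosomes and clears IGF2, was also lower in every E10.5 DCKO library. The controls had 28.8 and 37.4 RPKM (males) and 39.6 and 28.0 (females), and the DCKO libraries 20.8 (male) and 17.8 and 21.6 (females). The groups did not overlap, with a mean of 20.1 ± 2.03 RPKM (SD, n = 3) against 33.4 ± 5.91 (SD, n = 4). The fitted difference was -0.69 (SE 0.39, 95% interval -1.57 to 0.18; unadjusted p = 0.106, limma adjusted p = 0.991). By exact permutation, unadjusted and without regard to sex, p was 0.0286, the smallest possible. It rests on the same lack of overlap. The SD of Igf2r within groups at E10.5, 0.27 on the log2 scale, was above that of only 6.51% of genes tested. It rests on groups of 1 or 2 libraries, and at E11.5 it was 0.68, above 24.9%.

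Commd1 and Igf2r were thus 2 of 5 genes with all DCKO libraries below all controls at E10.5, a pattern held by 2.87% of genes; 0 of 5 had the reverse, held by 2.28%. Of the marker means, that of germ cells did not overlap between these groups, and that of mesenchyme did. The mean of all 31 markers of other cells, mesenchyme among them, was 0.72 to 1.79 in DCKO and 0.68 to 2.81 in controls. The mean of the 12 germ cell markers was 5.94 to 6.12 in the DCKO libraries and 5.61 to 5.93 in the controls. The mesenchyme mean was 0.10 to 0.39 in DCKO and 0.31 to 2.37 in controls, with 1 to 4 of the 6 markers listed at 0 in each DCKO library and 0 to 2 in each control. With the mesenchyme mean as a covariate the differences were -1.81 for Commd1 and -0.60 for Igf2r (limma adjusted p = 0.941 for each). Without male control 2 they were -1.81 and -0.64 (limma adjusted p = 0.914 for each). The part of the germ cell markers in these differences was not tested. In bulk samples, fewer cells of a type and less RNA per cell cannot be told apart.

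At E11.5 Igf2r was 24.1, 28.3, 74.6 and 9.32 RPKM in male controls and 82.7, 26.6, 23.2 and 38.0 in male DCKO libraries. The female controls had 28.2, 43.9, 44.6 and 35.8 RPKM, and the 6 female DCKO libraries 26.1 to 37.1 with a median of 33.2. The groups overlapped, and the 2 highest values, in male DCKO 1 and male control 3, belonged to 2 of the 3 libraries highest in mesenchyme markers. The difference was 0.13 (SE 0.32, 95% interval -0.55 to 0.81; limma adjusted p = 0.992), with 0.48 in males and -0.23 in females. The male difference was 0.01 without male control 4 and 0.97 without male control 3 (limma adjusted p = 1.00 and 0.616), and the difference over both sexes -0.11 and 0.37.

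Airn was far lower than Igf2r in most libraries and varied more. At E10.5 it was 1.21 and 22.1 RPKM in male controls, 0.140 and 0.344 in female controls, 0.0643 in male DCKO 1, and 1.84 and 0.523 in female DCKO libraries. Male control 2 alone was above the other 6 libraries by over 10 RPKM, and it was also the highest in mesenchyme markers. The difference was -0.65 (SE 1.06, 95% interval -3.07 to 1.77; limma adjusted p = 0.991; exact permutation p = 0.771). With the mesenchyme mean as a covariate it was 0.48 (limma adjusted p = 0.959).

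At E11.5 Airn was 2.35, 4.06, 42.0 and 0.0867 RPKM in male controls and 21.6, 0.686 and 3.43 in male DCKO 1 to 3; in male DCKO 4 it was listed at 0. Female controls had 3.75, 0.177, 5.36 and 0.339 RPKM. The 6 female DCKO libraries ran from 0.325 to 16.4 with a median of 1.84. The difference was 0.02 (SE 0.76, 95% interval -1.59 to 1.62; limma adjusted p = 0.999). The interval therefore leaves room for changes in either direction. Relative to Igf2r, Airn was 0.403% to 56.3% in controls and 0% to 44.3% in DCKO at E11.5, and 0.353% to 59.1% and 0.308% to 10.3% at E10.5. Airn did not exceed Igf2r in any of the 25 libraries.

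At E11.5 Igf2r and Airn had a positive r across libraries. Pearson's r was 0.60 (permutation p = 0.00822, adjusted 0.0219; n = 18), with 0.58 in DCKO and 0.64 in controls. Spearman's rho was 0.35 (adjusted p = 0.316 by permutation), and r was 0.45 without male DCKO 1 and male control 4, so the relation rests in part on single libraries. Both genes also had a positive r with the mesenchyme marker mean in these libraries (0.62 and 0.90), whose part in their relation was not tested. At E10.5 r was 0.34 (exact permutation p = 0.528, adjusted 0.590; rho 0.04; n = 7; r 0.86 without the 2 libraries farthest in Igf2r).

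**Figure D2:**
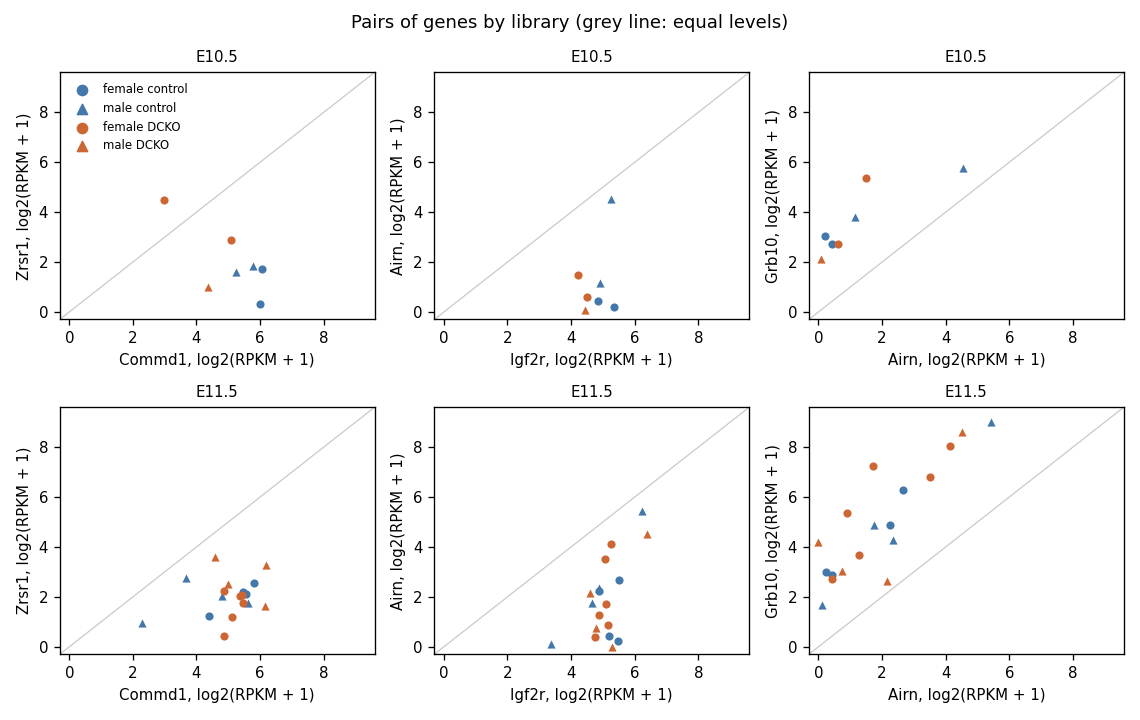
Each point is a library: Zrsr1 against Commd1, Airn against Igf2r, and Grb10 against Airn, all as log2(RPKM + 1), at E10.5 (top) and E11.5 (bottom). Airn stays below the line of equal levels with Igf2r in all libraries, Zrsr1 lies above Commd1 in 1 E10.5 library, and Grb10 rises with Airn at E11.5 (r = 0.86).

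Grb10 had the widest range of the 5 genes at E11.5, in RPKM and on the log2 scale, but not at E10.5. At E10.5 it was 13.2 and 53.9 RPKM in male controls, 7.28 and 5.64 in female controls, 3.38 in male DCKO 1, and 40.2 and 5.69 in female DCKO libraries. At E11.5 male controls had 28.2, 18.1, 515 and 2.23 RPKM and male DCKO libraries 391, 7.31, 5.25 and 17.4. Each of these 2 groups thus held 1 library far above its other 3. Female controls had 28.2, 7.06, 75.9 and 6.36 RPKM, and the 6 female DCKO libraries 5.59 to 264 with a median of 75.7. The spread within groups at E11.5, an SD of 2.39 on the log2 scale, was larger than that of 97.5% of genes tested; for Airn it was 1.74, larger than 93.4%.

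The Grb10 difference was -0.37 at E10.5 (SE 0.99, 95% interval -2.63 to 1.89; limma adjusted p = 0.991) and 0.53 at E11.5 (SE 1.01, 95% interval -1.58 to 2.64; limma adjusted p = 0.990). It was 1.39 in females (95% interval -1.46 to 4.24) and -0.33 in males (95% interval -3.45 to 2.79). Without male control 3 the male difference was 1.02 (limma adjusted p = 0.915). With the mesenchyme mean as a covariate the E11.5 difference was 0.86 (unadjusted p = 0.0325, limma adjusted p = 0.597).

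**Figure D3:**
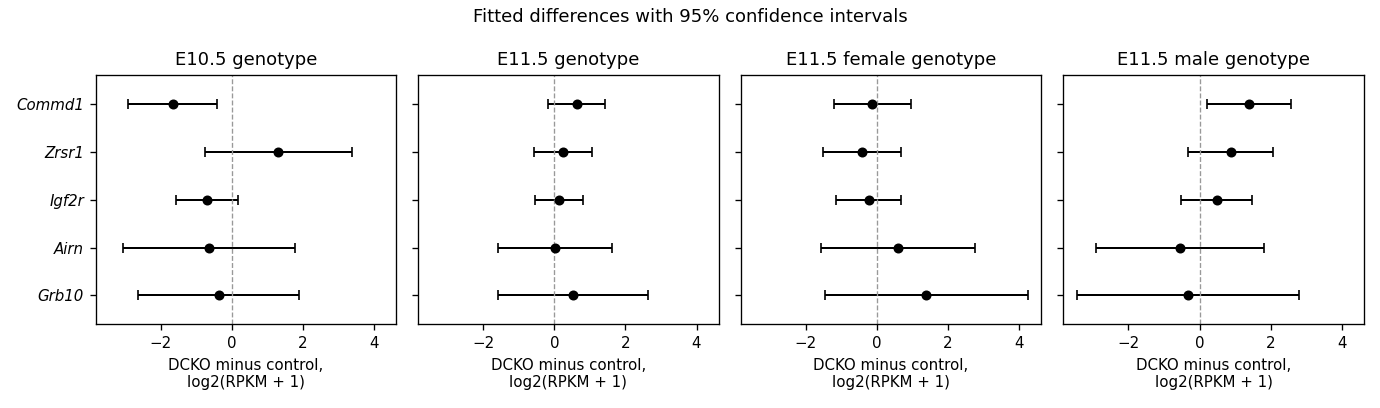
Fitted DCKO minus control differences on the log2(RPKM + 1) scale (points) with 95% confidence intervals (lines) for the 5 genes in the E10.5 model, the E11.5 model and each sex at E11.5. The intervals exclude 0 for Commd1 at E10.5 (-2.93 to -0.41) and in E11.5 males (0.20 to 2.57), and include it elsewhere.

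In all, 0 of 5 genes passed an adjusted p of 0.05 in any comparison (limma). At E11.5 0.0237% of genes passed over both sexes, 0.00789% in females and 0.0316% in males, so 0 of 5 is near the background. At an unadjusted limma p under 0.05 the count was 1 of 5 at E10.5 (Commd1), against 3.09% of genes. It was 1 of 5 in E11.5 males (Commd1), against 6.95%, and 0 of 5 over both sexes, against 5.46%. In E11.5 females the smallest unadjusted p of the 5 genes was 0.319 (limma, Grb10), where 2.17% of genes were under 0.05. At E11.5 0 of 5 had all DCKO libraries below all controls (0.0316% of genes did) and 0 of 5 above (0.00789%). The exact permutation p over the 18 libraries was 0.189 for Commd1, 0.755 for Zrsr1, 0.769 for Igf2r, 0.971 for Airn and 0.563 for Grb10.

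Airn and Grb10 rose and fell together with the mesenchyme markers at E11.5. For Airn, r with the marker mean was 0.90 (rho 0.86; adjusted permutation p = 8.0e-05; n = 18), and it was 0.89 within DCKO and 0.91 within controls. For Grb10, r was 0.92 (rho 0.85; adjusted permutation p = 8.0e-05), with 0.93 and 0.96. For both, the unadjusted p of r was 1.0e-05, the smallest that 100000 resamples give. Without male control 3 and female DCKO 4 the values were 0.82 and 0.88. Igf2r had r = 0.62 (rho 0.44; adjusted permutation p = 0.0153 for r and 0.178 for rho; r 0.53 without those 2), Commd1 0.37 (adjusted 0.188; 0.51 without those 2) and Zrsr1 0.23 (adjusted 0.434; 0.31 without those 2). These relations were chosen after the data were seen, and r with markers of other cell types was not tested. Male control 3, female DCKO 4 and female control 3 had mesenchyme means of 6.05, 4.82 and 3.53. Their titles share the number before the hyphen, whose meaning the labels do not give. The permutation treated all libraries as exchangeable. The endothelium marker mean was 3.89 for male DCKO 1, 4.24 for female DCKO 4 and 4.66 for male control 3 (E11.5 median 2.47). In the same order, gonadal somatic markers averaged 2.58, 3.93 and 3.93 (median 0.78), and erythroid markers 0.00, 5.17 and 5.47 (median 0.49). A relation to mesenchyme alone is therefore not shown.

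The marker mean overlapped between genotypes at E11.5: it was 0.28 to 6.05 in controls and 0.20 to 4.82 in DCKO, with 0 to 2 of the 6 markers at 0 in each library of both groups. Airn and Grb10 were also related to each other, with r = 0.86 (rho 0.77; adjusted permutation p = 1.1e-04; n = 18; r 0.76 without 2), 0.78 within DCKO and 0.97 within controls. At E10.5 Airn and Grb10 had r = 0.85 (exact permutation p = 0.00179, adjusted 0.00716; n = 7). Their relation to the markers did not hold there without male control 2 and male DCKO 1: for Airn r went from 0.91 to -0.84, and for Grb10 from 0.62 to -0.77. Commd1 and Igf2r went the other way without those 2, from 0.22 to 0.81 and from 0.62 to 0.86, and Zrsr1 went from -0.22 to -0.90. In the few libraries left the marker mean ran only from 0.12 to 0.53, and no p was computed for the r of any gene there. With all 7 libraries, Igf2r had an adjusted p of 0.155 for r and a rho of 0.82 (exact permutation p = 0.0341, adjusted 0.109), and Commd1 a rho of 0.43 (adjusted 0.515).

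**Figure D4:**
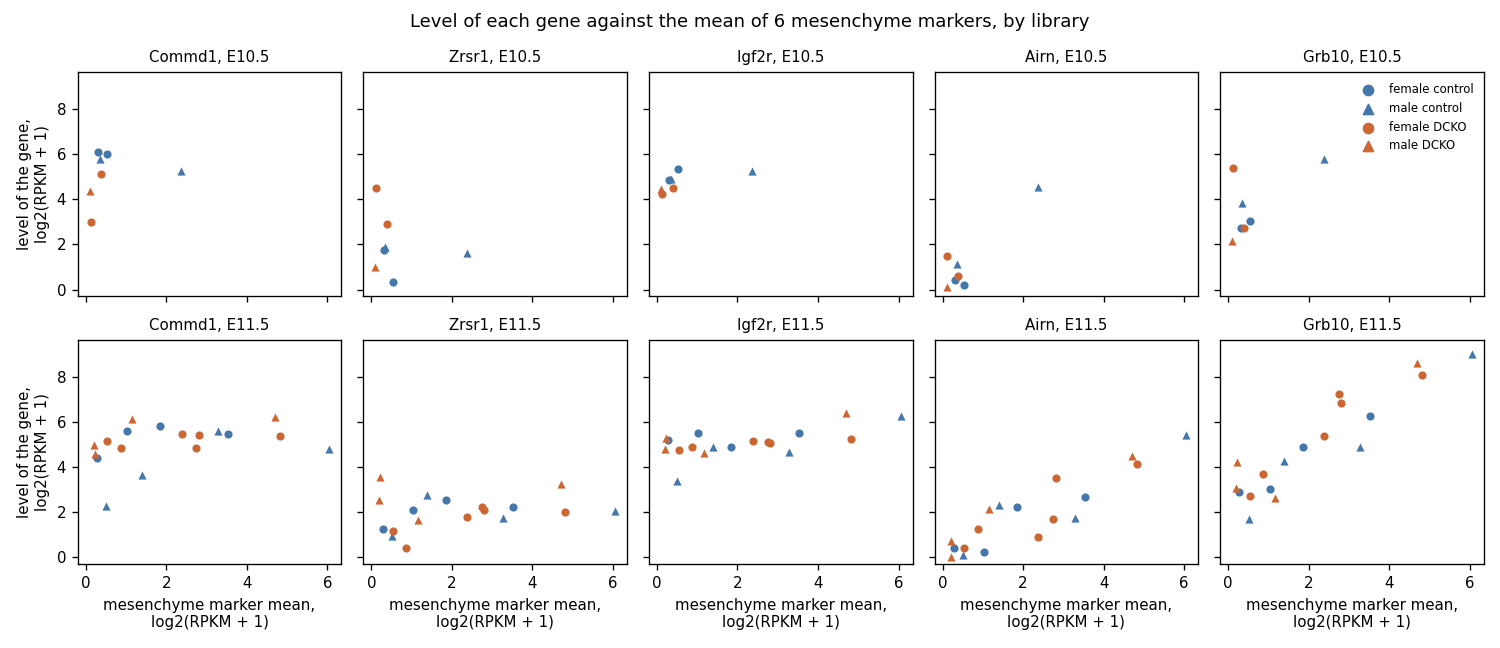
Level of each gene against the mean of 6 mesenchyme markers, both as log2(RPKM + 1), 1 point per library, at E10.5 (top) and E11.5 (bottom). At E11.5 Airn (r = 0.90) and Grb10 (r = 0.92) climb with the markers in both genotypes, with lower r for Commd1 (0.37) and Zrsr1 (0.23); at E10.5 male control 2 stands alone on the right.

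By the control medians the order of levels, on the per-length RPKM scale, was the same at both stages: Commd1 (58.7 RPKM at E10.5, 35.1 at E11.5), Igf2r (33.1 and 32.0), Grb10 (10.2 and 23.2), Zrsr1 (2.18 and 3.24) and Airn (0.779 and 3.05). Commd1 was above Igf2r in 3 of 4 controls at E10.5 and in 3 of 8 at E11.5, so these neighbours in the order do not separate at E11.5. Igf2r was above Grb10 in 5 of 8 E11.5 controls, and Zrsr1 above Airn in 5 of 8. Grb10 was above Zrsr1 in all 4 and all 8 controls. Levels of the 2 stages are set side by side only, as the tables may have been scaled separately.

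Genes around the loci and in the same pathways are described by counts beside those of all genes tested. At E11.5 45% of all genes had a difference above 0, with a median of -0.06; at E10.5 46.8% did, with a median of -0.05. Of 16 neighbours of the loci, 10 were tested at E11.5; 7 were above 0, with a median of 0.18, and 0 passed (limma). The smallest p belonged to Cct4, a chaperonin subunit (0.32, limma adjusted p = 0.912), and Fignl1, a DNA repair gene (0.40, limma adjusted p = 0.946). At E10.5 3 of 9 were above 0, with a median of -0.35 and 0 passing. There Ddc, the enzyme that makes dopamine and serotonin and the neighbour of Grb10, had -1.80 (SE 0.82, limma adjusted p = 0.991).

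Other imprinted host genes and the genes inside them, counted together, gave 4 of 6 above 0 at E11.5 (median 0.11). At E10.5 2 of 6 were above 0 (median -0.26), with 0 passing at either stage. Inpp5f, a phosphoinositide phosphatase, had -0.36 (limma adjusted p = 0.946) and Nnat, which lies in an intron of Blcap, 0.94 (limma adjusted p = 0.972) at E11.5. The COMMD family and its partners, the complex in which COMMD1 sorts endosomal cargo, gave 4 of 11 above 0 at E11.5 (median -0.14) and 7 of 11 at E10.5 (median 0.11), again with 0 passing. Commd2 (0.76) and Commd10 (-1.11) had the smallest p at E11.5 (limma adjusted p = 0.912 for each).

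Among splice site factors 7 of 13 were above 0 at E11.5 (median 0.01), 5 of 13 at E10.5 (median -0.14), and 0 passed. Sf1, the branch point binder, had -0.48 (limma adjusted p = 0.912) and Pdcd7 0.58 (limma adjusted p = 0.946). At E11.5 Zrsr2, the X-linked parent of Zrsr1, was at 15.0 to 25.2 RPKM in female controls. Female DCKO libraries had 25.3 to 49.3. Every female DCKO library was thus above every female control, a pattern held by 0.371% of all genes tested. Genes with the reverse pattern in females were not counted. The female Zrsr2 difference was 0.88 (SE 0.39, unadjusted p = 0.0351, limma adjusted p = 1.00), and the male one -0.43, from 9.45 to 40.3 RPKM in controls and 6.19 to 17.9 in DCKO. The difference between the sexes for Zrsr2 was 1.31 (unadjusted p = 0.0343, limma adjusted p = 0.995). At E11.5 Zrsr1 ran the other way in each sex, by -0.41 and 0.88. At E10.5 it did not, with fitted differences above 0 for both Zrsr2 (0.16) and Zrsr1 (1.31; limma adjusted p = 0.991 for each). Reads shared between these copies were not tested.

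The IGF and insulin pathway, in which Igf2r and Grb10 act as brakes, gave 11 of 19 above 0 at E11.5 (median 0.09) and 7 of 15 at E10.5 (median -0.04), with 0 passing. Grb7, a sister adaptor of Grb10, had -1.02 (SE 0.45, limma adjusted p = 0.902) and Mtor, a growth kinase, -0.64 (limma adjusted p = 0.912). Igf2, the ligand that Igf2r removes, ranged from 1.33 to 1140 RPKM in controls and 3.52 to 1120 in DCKO at E11.5, with a difference of 0.39 (SE 1.19, limma adjusted p = 0.992). Igf1r, the receptor that signals for IGF2, had -0.45 (limma adjusted p = 0.975). M6pr, the smaller mannose 6-phosphate receptor, had -0.04 at E11.5 and 0.05 at E10.5 (limma adjusted p = 0.995 and 0.992).

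Of 7 keepers of imprinted methylation, Dnmt1 passed at E11.5, falling by 2.07 (SE 0.34, limma adjusted p = 0.0355), which the knockout sets, and 0 others passed. In the smaller comparisons Dnmt1 itself did not pass: it had -2.07 at E10.5 and -2.10 and -2.05 in E11.5 females and males (limma adjusted p = 0.991, 0.567 and 0.585). Uhrf1, which brings DNMT1 to hemimethylated DNA, had 1.44 (SE 0.70, 95% interval -0.03 to 2.91; limma adjusted p = 0.902) at E11.5 and 1.04 at E10.5. Dppa3, a protector of maternal methylation and a germ cell marker, had 0.41 (limma adjusted p = 0.966).

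**Figure D5:**
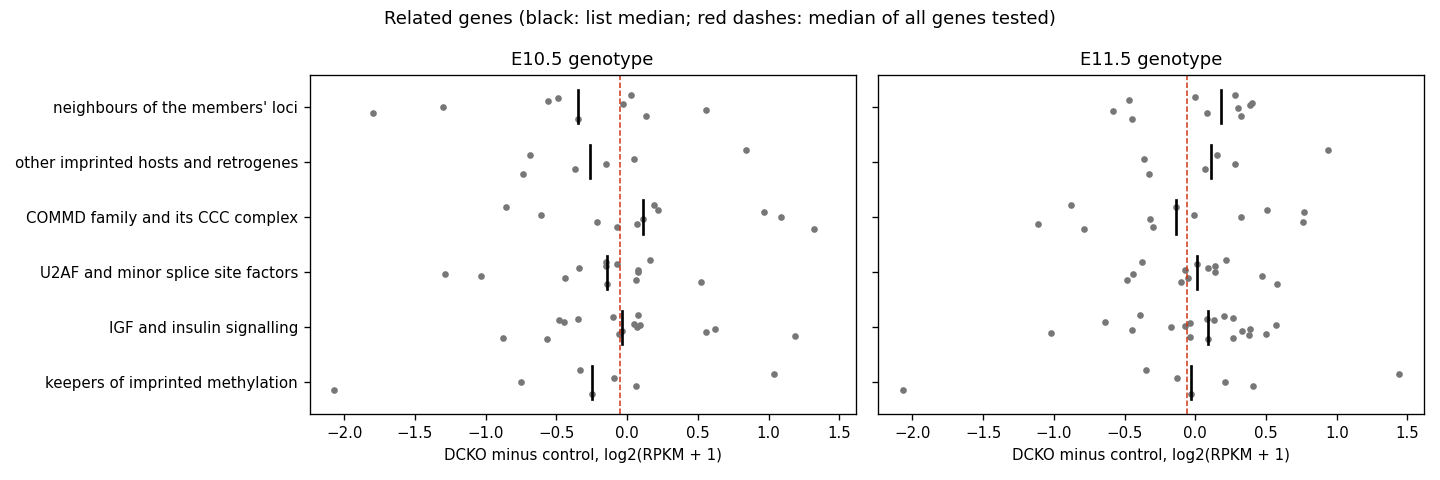
Fitted DCKO minus control differences on the log2(RPKM + 1) scale for the related genes that were tested, 1 point per gene, by list, at E10.5 (left) and E11.5 (right); black ticks are list medians and the red dashes the median of all genes tested (-0.05 and -0.06). The list medians lie between -0.35 and 0.18, and the point near -2 in the lowest list is Dnmt1.

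The genes whose levels tracked each member most closely over the 18 E11.5 libraries are given as a description, from 12666 genes searched. For Grb10 these were Dpysl3 (r = 0.98, rho 0.95), a neuronal cytoskeleton regulator, and Sox11 (0.96, rho 0.95), a transcription factor of neural and mesenchymal progenitors. For Airn they were Fbn2 (0.93, rho 0.90), a fibrillin of the embryonic matrix, and Sema6a (0.92, rho 0.94), a semaphorin. At E10.5 these 4 had r of 0.59, 0.60, 0.71 and 0.78 over 7 libraries. For Igf2r they were H1f0 (0.90, rho 0.81), a linker histone, and Sptbn1 (0.89, rho 0.70), a spectrin, with 0.40 and 0.74 at E10.5. For Commd1 they were Cks1b (0.83, rho 0.59) and Csnk1d (0.83, rho 0.44), a cell cycle subunit and a kinase, with -0.67 and 0.72 at E10.5, and for Zrsr1 they were Adh5 (0.78, rho 0.69) and Fbxl6 (0.77, rho 0.79), with 0.31 and 0.03. The points share library depth and cell makeup, and the closest of many genes will be high by selection.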

How the data were processed

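The authors deposited 1 table of RPKM per stage, with 1 column per library. The submitters' processing notes name build mm9, TopHat2 2.1.0, Cufflinks 2.2.1 and Cuffdiff, without their roles. The sources used here name no gene models and no strand setting. Depth cannot be recovered from these RPKM, so no counting intervals are given.

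Groups follow stage, sex and genotype as labelled. Genes averaging 1 RPKM or more were tested. Tests used limma 3.58.1 (R 4.3.3) with a mean trend on log2(RPKM + 1), within each stage, with Benjamini-Hochberg adjustment over all genes and a threshold of 0.05. The E11.5 model had 4 group means (sex by genotype), with the genotype difference as the mean of both sexes; the E10.5 model had additive genotype and sex. Differences on this scale understate the change of low genes. All tests were two-sided. Single genes were also tested by exact permutation, unadjusted. Correlations across libraries used 100000 resamples, or all permutations at n = 7 (scipy 1.17.1), with Benjamini-Hochberg adjustment over 16 relations. The scripts were tested on simulated data.

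The members and gene lists were chosen with earlier results of these data known. Named were the 5 members, Dnmt1, the 2 genes of each list with the smallest p at E11.5, any past the threshold, 5 fixed relatives (Igf2, M6pr, Igf1r, Zrsr2, Dppa3), and the 2 genes most correlated with each member; Ddc was named after its values were seen. Alternatives covered the pseudocount (0.1, 0.5), the filter (none, 5 RPKM), median-of-ratios scaling, replicate blocks, leaving out each library, and 2 settings on mesenchyme markers chosen after seeing the data. Start regions and overlaps came from RefSeq and GENCODE tables of GRCm38, which is not the build of the files.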

Additional observations from a re-analysis of the deposited data

Results flagged for a closer look

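Of 20 sets of values checked (5 genes in each of the 4 groups at E11.5, of 4 or 6 libraries), 4 held a library whose gap to its nearest neighbour was too large a part of the group's range for Dixon's 95% limit. The rate of about 1 group in 20 for this limit holds for normally distributed values. The check was run on RPKM without logs, so the number flagged cannot be set against that rate. Airn was 42.0 RPKM in male control 3, where the other male controls had 0.0867 to 4.06, and 21.6 in male DCKO 1, where the other male DCKO libraries had 0 to 3.43. Grb10 was 515 RPKM in male control 3 against 2.23 to 28.2 in the others, and 391 in male DCKO 1 against 5.25 to 17.4. Both libraries are among the 3 with the highest mesenchyme marker means at E11.5 (6.05 and 4.70).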

How the results depend on the processing

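Over 609 refits of the 5 genes under other settings, 0 gained or lost a call, with a lowest limma adjusted p of 0.232 (Commd1 in E11.5 males). Of these refits, 580 kept their sign and 29 did not. Many of these refits could not turn a sign, so the count that kept it overstates how steady the differences are. Leaving out a male library left the E11.5 female differences as they were, and the reverse. The filter settings changed no difference. The signs that turned were in Airn, Grb10, Igf2r and Commd1. Leaving out each library in turn gave, at E11.5, ranges of -0.11 to 0.37 for Igf2r, -0.43 to 0.52 for Airn and -0.13 to 1.21 for Grb10 over both sexes, -1.44 to 0.45 for Airn and -1.66 to 1.02 for Grb10 in males, and -0.44 to 0.03 for Commd1 in females. At E10.5 it gave -1.22 to 0.75 for Airn and -1.41 to 1.16 for Grb10; the highest values, 0.75 and 1.16, were without male DCKO 1. Airn failed the filter without male control 2 and has no value there. Commd1 at E10.5 stayed between -2.11 and -1.05 and Igf2r between -0.80 and -0.56.

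Further settings were added after seeing the data. With the mesenchyme marker mean as a covariate, the E11.5 male differences became 0.47 for Airn and 1.16 for Grb10, the differences between sexes -0.46 and -0.60 (1.15 and 1.72 without the covariate), and the E10.5 differences 0.48 and 0.41. Without the 3 libraries highest in those markers Airn was -0.14 at E11.5, and 1 gene passed in males. The cause was not tested.

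Counts over all genes were small in every setting. At E11.5, 3 genes passed over both sexes (2 to 5 leaving out a library), 1 in females (1 to 2), 4 in males (1 to 4) and 0 in the difference between sexes (0 to 1). At E10.5 0 passed (0 to 11, the 11 without male DCKO 1). In females 2 passed with a pseudocount of 0.1 and 2 with no filter.

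With the replicate number as a replicate block, 2 genes passed in females, 2 in males and 1 in the difference between sexes, and Commd1 in females was 0.04. With the title number as a replicate block, 1 passed in males. The title number is the number before the hyphen at the end of a sample title, whose meaning the labels do not give; whether it marks a shared litter or day is not known. Not every pair passed the limit set for calling the libraries paired, and only pairs of different genotypes were checked. Libraries with the same replicate number had correlated deviations over 0.1 in 3 of 16 pairs at E11.5 (-0.23 to 0.15) and in 0 of 4 at E10.5. For the title number it was 6 of 13 at E11.5 (-0.02 to 0.49, median 0.08 against 0 in other pairs) and 0 of 3 at E10.5.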
